A study of Homo sapiens with 4 samples.

Results

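Genes of cholesterol and fatty acid synthesis were followed in IMR-32 neuroblastoma cells with and without knockdown of NeuroD1. The set was a list of 31 genes chosen by name, out of 60612 genes in the count table: 19 enzymes of the sterol pathway, 6 genes of sterol sensing and transport, and 6 enzymes that make, elongate or desaturate fatty acids. Each gene was found in the table under its Ensembl identifier, and each passed the filter on low counts.

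Cells build cholesterol from acetyl-CoA through mevalonate, isoprenoids, squalene and lanosterol, and they build fatty acids from malonyl-CoA on fatty acid synthase. Both routes are set largely by the SREBP transcription factors, which are made as membrane proteins of the endoplasmic reticulum. SCAP escorts them to the Golgi for cleavage when sterols are scarce, and the INSIG proteins hold SCAP back when sterols are plentiful. Neural cells make most of their own cholesterol, and dividing cells draw on both routes for new membrane.

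RNAseq was done on IMR-32, an established human neuroblastoma line with amplified MYCN, which was stably transduced with an inducible short hairpin RNA. 2 libraries carried a control hairpin (shControl, for which the labels give the genotype WT) and 2 carried a hairpin against NeuroD1 (shNeuroD1, genotype NeuroD1 knockdown). All 4 received doxycycline at 1 µg/mL for 48 h, so the controls share the inducer, and no library without it was analysed here. The column names used by the study show that both knockdown libraries came from the same hairpin. The labels do not say whether libraries of a group were separate cultures. The p-values therefore measure only the spread between these libraries, which may be technical. In such bulk samples fewer cells of a state and less RNA per cell cannot be told apart.

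Library totals ran from 14665210 to 16482463 counts, and 26071 to 27121 genes had at least 1 count. Levels are given as CPM, a gene's counts relative to the TMM-scaled total of its library. NEUROD1, the targeted gene, stood at 419 and 414.5 CPM in shControl and at 63.7 and 58.2 CPM in shNeuroD1, which left 14.6% of the control mean. The 10 markers of adrenergic neuroblastoma were detected in all libraries, with a summed level of 4265 and 4167 CPM in shControl and of 3987 and 3968 CPM in shNeuroD1. Of 6 mesenchymal markers 4 were detected in all libraries and PRRX1 was at 0, and their sum was 221 and 224 CPM against 165.5 and 163 CPM. The share of mitochondrial genes was 4.37% and 4.59% in the control libraries against 5.39% and 5.51% after knockdown. The part of these shifts in the results that follow was not tested.

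The 31 genes together held 0.459% and 0.471% of the counts of the control libraries against 0.468% and 0.457% after knockdown, ranges that overlap. These are shares of the raw library totals, that is on the scale of library size alone. The calls that follow use TMM scaling, under which no such total was computed. Within that total single genes moved in both directions. By edgeR's quasi-likelihood test at an adjusted p under 0.05, 16 of the 31 genes fell (51.6%), 6 rose (19.4%) and 9 did not pass. Among all 17537 genes tested 28.2% were called lower and 26.8% higher. Among the 9711 genes whose mean reached that of MVD (13.7 CPM), the lowest of the set, 40.7% were called lower and 25.7% higher.

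Most of the changes were small. A log2 fold change beyond 1 in size was reached by STARD4 among the genes that fell and by TM7SF2 among those that rose, against 5.14% and 8.79% of all genes lower and higher under that rule. The median size of the log2 fold change was 0.23 over the set and 0.34 over all genes. The latter includes genes below the level of the lowest member, and no such median was computed for genes of matched level. Libraries of the 2 groups did not overlap for 17 genes in the lower and 13 in the higher direction, where 37.7% and 38.4% of all genes had no such overlap.

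The median and the balance of calls moved with the scaling, for the set and for all genes alike. The median log2 fold change was -0.12 over the set and 0.01 over all genes, whereas scaling by library size alone put these medians at -0.01 and 0.12, a shift of the zero line that every gene shares. Under that scaling 10 genes were called lower and 12 higher, so 45.5% of the calls were downward in place of 72.7%. Over all genes the same scaling called 20.8% lower and 34.9% higher. The plot of fold changes shows both scalings for each gene.

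**Figure D1:**
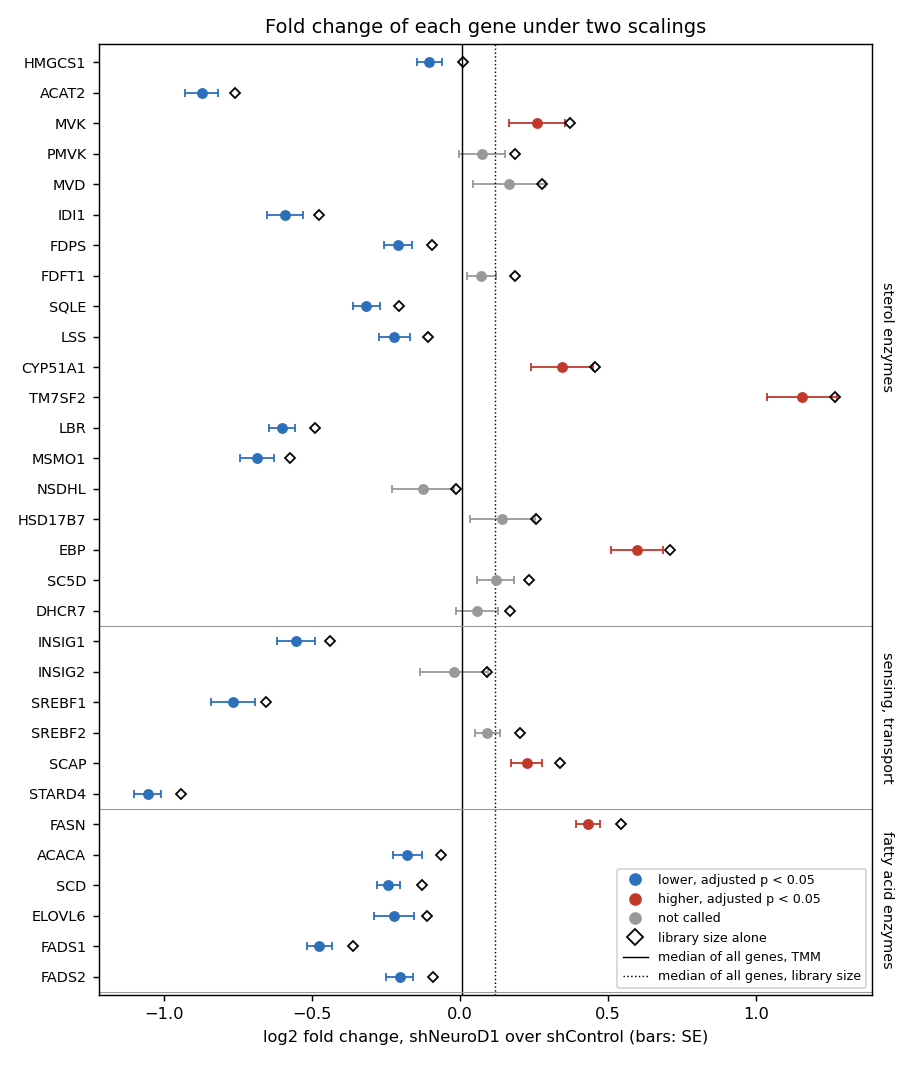
Log2 fold change of each of the 31 genes, shNeuroD1 over shControl (x axis, bars SE, 2 libraries a group), under TMM scaling (filled circles, coloured by call) and under library size alone (open diamonds), with the median of all genes as a solid and a dotted line. Scaling by library size moves every gene to the right, and STARD4 at -1.05 and TM7SF2 at 1.16 lie farthest from the other genes of the set under TMM.

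Of the 19 sterol enzymes 8 fell, 4 rose and 7 did not pass, with a median log2 fold change of 0.06 (0.17 under library size alone) whose sign differs from the majority of the calls. The genes that fell were ACAT2, HMGCS1, IDI1, FDPS, SQLE, LSS, LBR and MSMO1, and those that rose were MVK, CYP51A1, TM7SF2 and EBP. In the order of the pathway, the calls before and up to lanosterol were falls with the exception of MVK, and those after lanosterol went both ways.

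At the start of the route stand ACAT2, the thiolase that joins acetyl-CoA units, and HMGCS1, which makes HMG-CoA. ACAT2 was at 102.5 and 100.1 CPM in shControl and at 56.1 and 54.6 CPM in shNeuroD1. It was far below the controls in both knockdown libraries, at 54.6% of their mean, and fell by 0.87 in log2 units (SE 0.057, edgeR adjusted p = 1.3e-14). Its exons share 397 bases with the more abundant TCP1 on the other strand, and since the use of strand in counting was not stated, its value is uncertain to that extent. HMGCS1 was at 280.1 and 277 CPM against 258 and 261 CPM. The groups were apart by a narrow margin and the log2 fold change was -0.10 (edgeR adjusted p = 0.040), but under library size alone it was 0.01, and the call was lost with DESeq2 and without 3 of the 4 libraries in turn (shControl library 1 or either shNeuroD1 library).

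Mevalonate is then phosphorylated and decarboxylated by MVK, PMVK and MVD. MVK was at 19.5 and 20.1 CPM in shControl and at 23.9 and 23.5 CPM in shNeuroD1, a rise of 0.26 on the log2 scale (edgeR adjusted p = 0.021) that was lost whichever library was left out, and its exons share 306 bases with MMAB on the other strand. PMVK (32.4, 32.2, 33.7 and 34.3 CPM, controls first) and MVD (13.7, 12.2, 14.6 and 14.45 CPM) did not pass, with edgeR adjusted p-values of 0.43 and 0.25. IDI1 interconverts the isoprenoid building blocks, and FDPS condenses them to farnesyl diphosphate. IDI1 was at 104 and 92.95 CPM in shControl and at 67.9 and 63.1 CPM in shNeuroD1, and fell by 0.59 (SE 0.061, edgeR adjusted p = 6.6e-10). FDPS was at 153 and 157 against 134 and 134 CPM. Its fall of 0.21 (edgeR adjusted p = 3.7e-04) was of a size that library-size scaling brought to -0.10 and out of the calls. Antisense genes on the other strand share exon bases with both. IDI2-AS1 shares 643 with IDI1 and held 303 counts over the 4 libraries, against 5008 for IDI1. RUSC1-AS1 shares 693 with FDPS and held 1173 counts, against 8818 for FDPS.

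Squalene is made by FDFT1, oxidised by SQLE and closed to lanosterol by LSS. FDFT1 was at 115 and 112 CPM in shControl and at 122 and 117 CPM in shNeuroD1, a log2 fold change of 0.07 that did not pass (edgeR adjusted p = 0.22). SQLE, a rate-limiting enzyme, was at 176 and 178 against 141 and 143 CPM. The log2 level fell by 0.32 (SE 0.046, edgeR adjusted p = 5.6e-07), with the groups well apart and the call kept under library size alone. LSS was at 114 and 119 CPM in shControl and at 102 and 98.1 CPM in shNeuroD1, and fell by 0.22 (edgeR adjusted p = 5.1e-04), a call lost under library size alone.

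After lanosterol, CYP51A1 removes a methyl group and opens the way to the sterol reductases TM7SF2 and LBR. CYP51A1 was at 15.7 and 18.9 CPM against 22.7 and 21.3 CPM. It shares 2844 of its 3584 merged exon bases with another annotated gene on the same strand, AC000120.2, which held 1 count, and the mode of counting such reads was not stated, so its level is uncertain. Its log2 fold change of 0.34 passed (edgeR adjusted p = 0.006). The call was lost without shControl library 1 or shNeuroD1 library 1, with DESeq2, and with no filter on low counts. Its controls lay farther apart than the nearer of them did from shNeuroD1 library 2, the nearer knockdown library. Demethylation goes on through MSMO1, NSDHL and HSD17B7. MSMO1 was at 85.9 and 87.5 CPM in shControl and at 55.3 and 52.6 CPM in shNeuroD1, 62.2% of the control mean, and fell by 0.68 (SE 0.059, edgeR adjusted p = 1.1e-11). NSDHL (21.1, 18.6, 18.5 and 17.9 CPM) and HSD17B7 (15.4, 15.1, 17.2 and 16.55 CPM) did not pass, and pseudogenes named after HSD17B7 held counts equal to 26.1% of its own.

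The last steps belong to EBP, SC5D and DHCR7, an isomerase, a desaturase and a reductase. EBP was at 21.0 and 20.5 CPM in shControl and at 31.1 and 31.65 CPM in shNeuroD1. It rose by 0.60 in log2 units (SE 0.087, edgeR adjusted p = 6.4e-07), with replicates close and groups far apart. SC5D (57.7, 54.3, 60.9 and 60.75 CPM) and DHCR7 (39.5, 40.1, 41.5 and 41.4 CPM) did not pass under TMM, though both were called higher under library size alone.

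**Figure D2:**
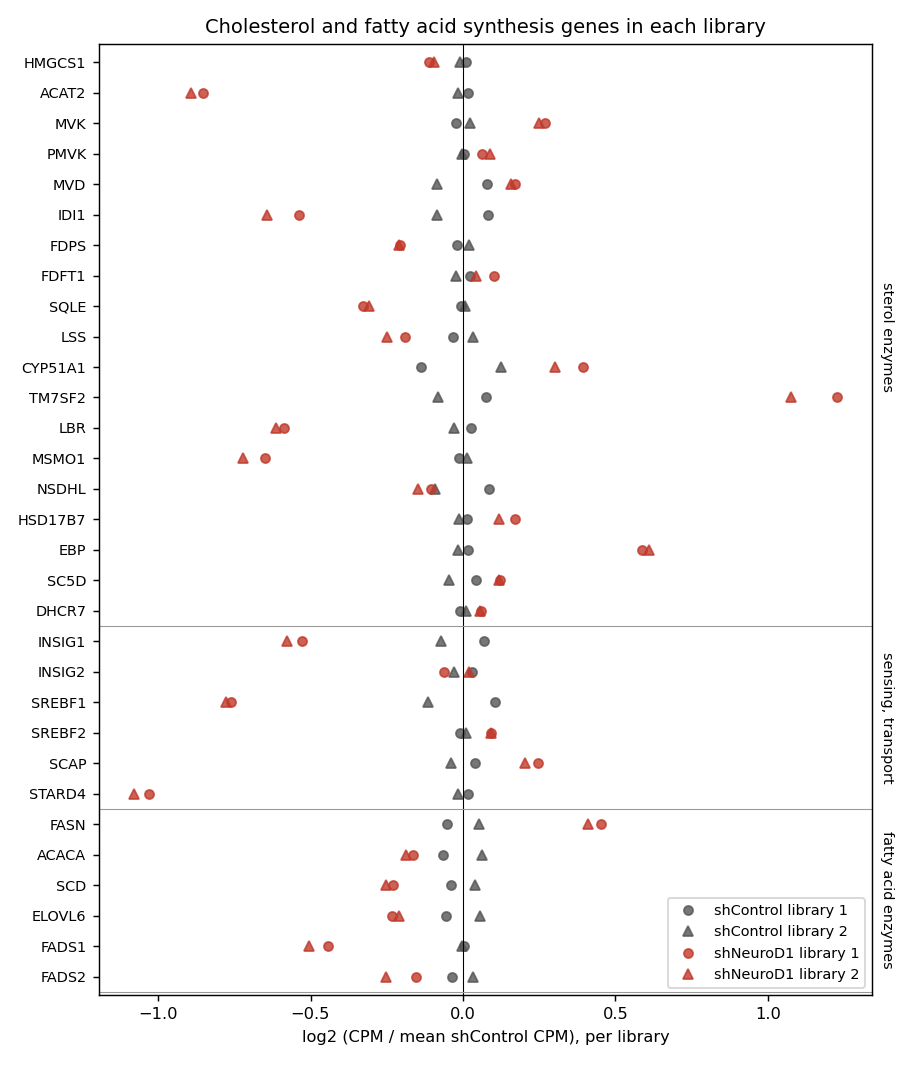
CPM of each of the 31 genes in each of the 4 libraries, as log2 of the ratio to the shControl mean (x axis), with shControl in grey, shNeuroD1 in red, and library 1 as circles and library 2 as triangles. Replicates lie close together for nearly all genes, while shNeuroD1 lies left of shControl for STARD4, ACAT2 and SREBF1 and right of it for TM7SF2 and EBP.

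The same reduction of the sterol ring can be carried out by TM7SF2 or by LBR, the lamin B receptor of the inner nuclear membrane. TM7SF2 lies on chromosome 11 (65111845 to 65116384, plus strand, GRCh38) and was at 10.2 and 9.13 CPM in shControl and at 22.6 and 20.4 CPM in shNeuroD1. It rose to 223% of the control mean, by 1.16 in log2 units (SE 0.12, edgeR adjusted p = 6.7e-10). LBR lies on chromosome 1 (225401502 to 225428925, minus strand) and was at 322 and 309.8 against 210.4 and 206 CPM. It fell by 0.60 (SE 0.043, edgeR adjusted p = 1.9e-13), to 66.0% of the control mean. In both genes the knockdown libraries lay far outside the spread of the controls, in opposite directions.

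Per kb of merged exons, the ratio of TM7SF2 to LBR went from 0.0488 and 0.0455 in the controls to 0.166 and 0.152 in the knockdown, a 3.375-fold change, so LBR remained by far the more abundant mRNA in every library. The two-sided exact permutation p of this ratio was 0.333, the smallest that 2 against 2 libraries can give, so no ratio here can pass 0.05. The promoters of this pair are shown because their mRNAs moved in opposite directions (RefSeq, GRCh38.p14, 250 bases before to 50 after the start site, on the strand of the gene). Capitals mark any TCACNCCAC (a form of the sterol regulatory element bound by SREBP), CACGTG (an E-box) or CCAAT (the core of the NF-Y box), or its reverse complement. TM7SF2 is at chr11:65111622-65111921 and LBR at chr1:225428772-225429071.
TM7SF2: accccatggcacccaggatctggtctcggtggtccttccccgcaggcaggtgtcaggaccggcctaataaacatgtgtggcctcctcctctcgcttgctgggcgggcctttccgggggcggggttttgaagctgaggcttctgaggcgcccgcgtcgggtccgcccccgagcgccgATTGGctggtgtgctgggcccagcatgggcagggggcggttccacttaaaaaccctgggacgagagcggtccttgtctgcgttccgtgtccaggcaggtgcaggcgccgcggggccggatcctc
LBR: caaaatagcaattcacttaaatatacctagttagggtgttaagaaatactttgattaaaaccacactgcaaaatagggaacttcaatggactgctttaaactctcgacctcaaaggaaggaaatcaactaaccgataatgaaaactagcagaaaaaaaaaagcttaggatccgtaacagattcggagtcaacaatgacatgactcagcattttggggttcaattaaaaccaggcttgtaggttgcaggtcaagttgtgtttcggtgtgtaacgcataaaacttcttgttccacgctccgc
TM7SF2 held 1 CCAAT, on the other strand, at -74 from the start site, and LBR held none of these motifs in the window, which says only that these letters are not there. In the deposited FPKM values, the LBR start with its first exon ending at 225428706 was at 20.29, 0, 0 and 18.85 (controls first). Another, with its first exon ending at 225427954, was at 14.07, 26.48, 27.17 and 5.265. Whether the window shown serves both was not tested.

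Among the 6 genes of sterol sensing and transport 3 fell (STARD4, SREBF1 and INSIG1), SCAP rose, and SREBF2 and INSIG2 did not pass, with a median log2 fold change of -0.29 (-0.17 under library size alone). STARD4, a small cytosolic carrier that moves sterol between membranes, lies on chromosome 5 (111496033 to 111512590, minus strand). It was at 264.5 and 259 CPM in shControl and at 128 and 124 CPM in shNeuroD1. Both knockdown libraries were below every control by more than 100 CPM, and STARD4 fell by 1.05 in log2 units (SE 0.046, edgeR adjusted p = 4.3e-19), to 48.2% of the control mean. Its log2 fold change ran from -1.08 to -1.03 when each library was left out and was -0.94 under library size alone. An antisense gene, STARD4-AS1, shares 124 exon bases with it and held 2925 counts over the 4 libraries against 11843 for STARD4.

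SREBF1 and SREBF2 encode the SREBP precursors, of which the former is known mainly for fatty acid genes and the latter for sterol genes. SREBF1 was at 62.3 and 53.5 CPM in shControl and at 34.2 and 33.8 CPM in shNeuroD1. It fell by 0.77 (SE 0.075, edgeR adjusted p = 2.0e-10), to 58.7% of the control mean, although its exons share 556 bases with RAI1 on the other strand. RAI1 held 8313 counts over the 4 libraries against 2803 for SREBF1, and the use of strand in counting was not stated. SREBF2 was at 248 and 251 against 266 and 266 CPM, and its log2 fold change of 0.09 did not pass (edgeR adjusted p = 0.066). SREBF2 was called higher under library size alone, and also under TMM when genes were filtered at a minimum mean of 1 CPM. Under library size alone SREBF1 remained lower at -0.65. The ratio of SREBF1 to SREBF2 per kb went from 0.2365 and 0.201 to 0.121 and 0.120.

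INSIG1, itself a target of SREBP, was at 75.1 and 68.1 CPM in shControl and at 49.6 and 47.9 CPM in shNeuroD1, and fell by 0.55 (SE 0.064, edgeR adjusted p = 8.3e-09). INSIG2, its paralog, was at 15.6 and 14.99 against 14.7 and 15.5 CPM. Its groups overlapped, and its log2 fold change of -0.02 (edgeR adjusted p = 0.90) turned to 0.09 under library size alone and changed sign without shControl library 1 or shNeuroD1 library 1. The ratio of INSIG1 to INSIG2 per kb went from 5.21 and 4.92 to 3.66 and 3.35. SCAP, the escort of SREBP, was at 97.2 and 92.2 CPM against 112 and 109 CPM and rose by 0.23 (SE 0.052, edgeR adjusted p = 4.4e-04). Genes that act on the same SREBP complex thus moved apart, INSIG1 downward and SCAP upward.

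The promoters of STARD4 and INSIG1, which fell, are shown beside that of SREBF2, which did not pass and is the only one of the 27 members matched to RefSeq promoters that held TCACNCCAC (same window and build, capitals as above). STARD4 is at chr5:111512486-111512785, INSIG1 at chr7:155297628-155297927 and SREBF2 at chr22:41832855-41833154.
STARD4: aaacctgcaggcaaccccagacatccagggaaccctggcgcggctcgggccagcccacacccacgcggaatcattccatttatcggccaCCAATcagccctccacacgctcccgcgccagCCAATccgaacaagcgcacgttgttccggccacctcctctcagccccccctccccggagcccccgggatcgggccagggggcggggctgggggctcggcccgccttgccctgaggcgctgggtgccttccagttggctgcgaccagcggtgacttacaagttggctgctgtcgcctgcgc
INSIG1: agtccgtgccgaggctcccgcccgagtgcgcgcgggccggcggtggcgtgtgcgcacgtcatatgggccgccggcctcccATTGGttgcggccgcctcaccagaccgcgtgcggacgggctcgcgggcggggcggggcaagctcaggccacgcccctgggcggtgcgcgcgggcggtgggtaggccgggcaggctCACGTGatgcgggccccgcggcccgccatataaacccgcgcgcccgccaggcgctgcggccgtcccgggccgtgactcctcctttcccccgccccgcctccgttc
SREBF2: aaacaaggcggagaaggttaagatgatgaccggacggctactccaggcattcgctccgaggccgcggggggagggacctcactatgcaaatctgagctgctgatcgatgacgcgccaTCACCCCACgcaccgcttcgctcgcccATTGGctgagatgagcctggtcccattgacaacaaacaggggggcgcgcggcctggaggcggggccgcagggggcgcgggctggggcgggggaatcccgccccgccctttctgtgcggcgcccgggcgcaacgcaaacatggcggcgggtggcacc
STARD4 held CCAAT at -161 and -130 from the start site, INSIG1 held CCAAT on the other strand at -170 and CACGTG at -55, and SREBF2 held TCACNCCAC at -133 and CCAAT on the other strand at -106.

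Over the 36 promoters of these 27 genes, searched on both strands, CCAAT was in 61.1% and GGGCGG (a GC box bound by Sp factors) in 86.1%, against 34.7% and 56.3% of the 22199 promoters of coding genes of the same length. TCACNCCAC was in 2.78% against 1.13%, and CACGTG in 13.9% against 8.34%, in INSIG1, LSS, SC5D and SCAP. The E-boxes of the kind NeuroD1 binds were in 8.33% against 12.2% (CAGATG) and in 16.7% against 18% (CAGCTG). The letters CCAAT were found in promoters of genes that fell, such as STARD4, MSMO1 and IDI1, of genes that rose, such as TM7SF2, EBP and MVK, and of genes that did not pass, such as NSDHL, so they did not mark a direction. These shares describe letters in a fixed window, several promoters can belong to 1 gene, and no binding was measured in these data.

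The 6 fatty acid enzymes all passed the test, 5 lower and 1 higher, with a median log2 fold change of -0.21 (-0.10 under library size alone). The gene that rose was FASN, fatty acid synthase, on chromosome 17 (82078333 to 82098332, minus strand). It was at 813 and 874 CPM in shControl and at 1155 and 1121 CPM in shNeuroD1. FASN rose by 0.43 in log2 units (SE 0.040, edgeR adjusted p = 8.4e-11), to 135% of the control mean, the gap between groups being several times that between replicates.

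ACACA makes malonyl-CoA, the substrate of FASN, and was at 176 and 193 CPM in shControl and at 164.5 and 162 CPM in shNeuroD1. Its log2 fold change of -0.18 passed (edgeR adjusted p = 0.002), but not without shControl library 2, the higher control, and not under library size alone. SCD, which places a double bond in the product, was at 732 and 772 against 641 and 632 CPM, and fell by 0.24 (SE 0.040, edgeR adjusted p = 5.2e-06). ELOVL6, which lengthens palmitate, was at 52.0 and 56.1 against 46.0 and 46.7 CPM, with a log2 fold change of -0.22 (edgeR adjusted p = 0.005) that was likewise lost without shControl library 2, under library size alone and with DESeq2. By counts FASN thus went up while the enzymes on either side of it went down, of which only SCD kept its call under library size alone. The deposited FPKM values of ELOVL6, summed over transcript starts, went the other way. They were 3.20 and 1.33 in shControl and 4.86 and 3.76 in shNeuroD1.

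FADS1 and FADS2 desaturate polyunsaturated fatty acids and lie next to each other on chromosome 11, on opposite strands. FADS1 was at 317 and 315 CPM in shControl and at 232 and 222 CPM in shNeuroD1, and fell by 0.47 (SE 0.043, edgeR adjusted p = 3.9e-11). FADS2 was at 249.9 and 262 against 230.1 and 215 CPM. Its fall of 0.20 (edgeR adjusted p = 3.3e-04) was lost without shControl library 2, without shNeuroD1 library 2 and under library size alone. In the deposited FPKM values, summed over its transcript starts, FADS2 was at 89.1 and 107.5 in shControl against 51.85 and 45.1 after knockdown, with means of 98.3 and 48.5 FPKM (limma on log2(FPKM + 1), adjusted p = 0.045). That change was larger than the change in its counts. FADS2 was the only one of 28 genes called when all listed starts were summed. Of the sum, 55.2 and 52.6 FPKM in shControl and 27.5 and 21.3 after knockdown came from a start whose first exon ends at 61793028. FADS2 begins at 61792980 and shares 49 exon bases with FEN1 on the same strand, as many as that exon spans. FEN1 held 7805 counts over the 4 libraries, and its part in the sum was not tested. The start ending its first exon at 61828597 was at 28.9 and 54.1 against 23.3 and 19.9 FPKM. FADS1 and FADS2 share 490 exon bases, so without known strand their counts are not fully separate. The ratio of FADS1 to FADS2 per kb still went from 1.37 and 1.29 to 1.09 and 1.11.

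Against FASN, the other enzymes that feed or follow it stood lower in the knockdown. The ratio of SCD to FASN per kb went from 1.57 and 1.54 to 0.970 and 0.985, and that of ACACA to FASN from 0.156 and 0.159 to 0.102 and 0.104. ACLY, which makes the cytosolic acetyl-CoA for both routes and is no member of the set, stood at 1.58 and 1.56 times FASN in shControl and at 0.713 and 0.723 times in shNeuroD1. These ratios do not depend on the scaling, and in each the groups were apart. The plot of ratios shows 4 of the pairs.

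**Figure D3:**
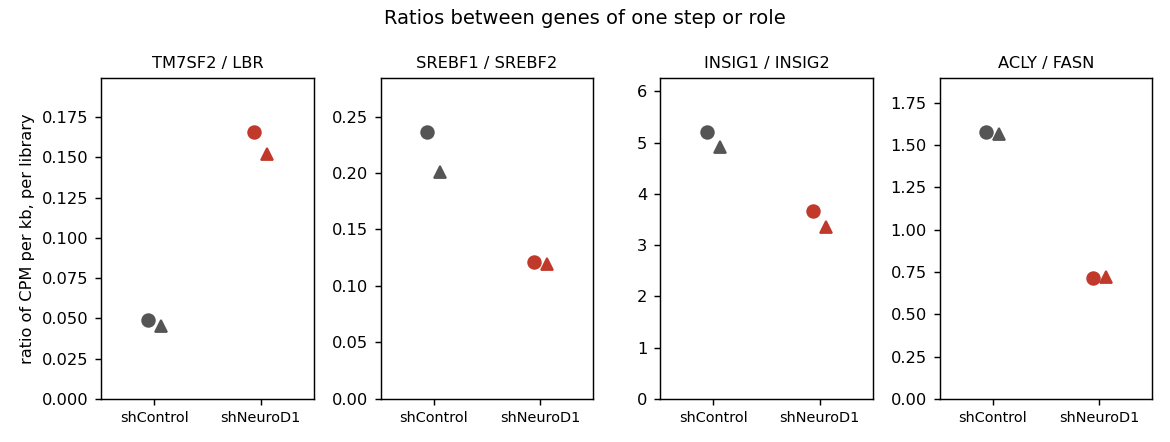
Ratios of CPM per kb of merged exons (y axis, no unit, starting at 0) in each library for TM7SF2 to LBR, SREBF1 to SREBF2, INSIG1 to INSIG2 and ACLY to FASN, with shControl in grey and shNeuroD1 in red. The groups are apart in all 4 panels, upward for TM7SF2 to LBR (0.0488 and 0.0455 to 0.166 and 0.152) and downward for the others.

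Levels between the genes were compared per kb of merged exons in GENCODE 29. In shControl SCD was highest at a mean of 140.3 CPM per kb, followed by FASN at 90.1, LBR at 60.1, HMGCS1 at 59.2 and STARD4 at 46.0. The lowest were MVK at 3.05, TM7SF2 at 2.83 and MVD at 2.75 CPM per kb. The range thus spanned enzymes of the same pathway, since HMGCS1 and MVD are both steps before squalene. By mean FPKM summed over starts the order in shControl differed. HMGCS1, at 20.8 FPKM, was below FDPS at 48.95 and SQLE at 42.2. TM7SF2 was at 16.2 FPKM, a sum that includes a start outside the gene.

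Libraries of neighbours in this order overlapped for 10 of 30 pairs in shControl, among them LBR and HMGCS1, FDPS and SQLE, and TM7SF2 and MVD, and for 7 of 30 in shNeuroD1. After knockdown FASN, at 121.5 CPM per kb, stood above SCD, at 119, and their libraries did not overlap, although by 119.7 against 119.6 CPM per kb at the nearest. STARD4 went from rank 5 to rank 11, at 22.2 CPM per kb, and TM7SF2 from rank 30 to rank 25, at 6.30. ACAT2 went from rank 12 to rank 19 and EBP from rank 23 to rank 18. FDFT1, which did not pass the test, went from rank 15 to rank 9, and its own level was 21.8 CPM per kb in shControl and 22.9 in shNeuroD1.

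**Figure D4:**
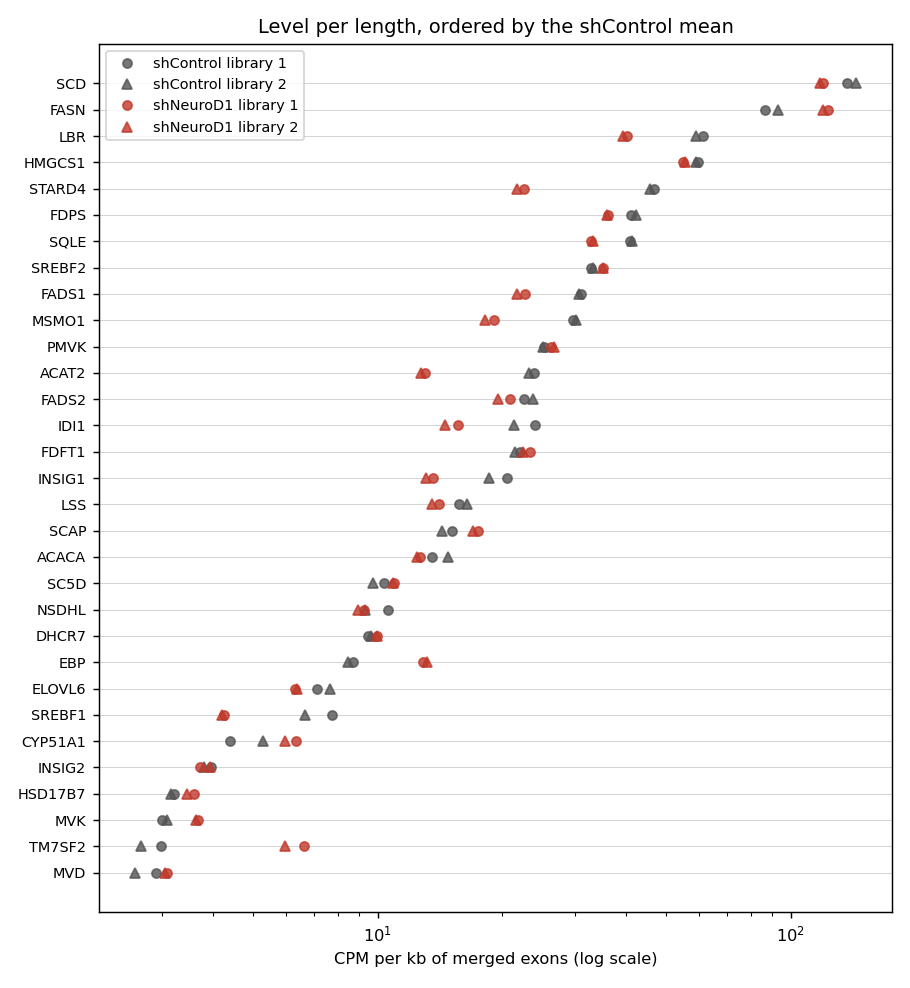
CPM per kb of merged exons (x axis, log scale) of each gene in each library, ordered by the shControl mean, with shControl in grey and shNeuroD1 in red. The order runs from SCD at 140.3 to MVD at 2.75 in shControl, and STARD4, ACAT2 and TM7SF2 are displaced farthest by the knockdown.

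The deposited FPKM values of transcript starts, which are fragments scaled by length and depth, gave a second readout of the genes, with larger error than the counts. 103 starts were listed for 28 of the genes, and FADS1, CYP51A1 and EBP had none. Of the 39 starts with a mean of at least 1 FPKM, limma on log2(FPKM + 1) called 0, with 7 at an unadjusted p under 0.05, and of all 14382 starts tested it called 0.00695% in each direction. In 18 of the 39 the replicates of a group differed by over 2-fold, so single starts are given as values.

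The start of TM7SF2 whose first exon ends at 65112067 was at 1.37 and 1.54 FPKM in shControl and at 3.82 and 4.17 FPKM in shNeuroD1 (log2 fold change 1.02, limma adjusted p = 0.15). A start assigned to the same merged locus but ending its first exon at 65096478, outside the gene, was at 15.3 and 12.0 against 11.9 and 10.01 FPKM. A gene sum that keeps this start has a log2 fold change of 0.12 for TM7SF2, and a sum over starts within the gene, chosen after seeing the data, has 1.18 (limma adjusted p = 0.037).

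STARD4 had a pair of listed starts, told apart by the end of the first exon. That with the first exon ending at 111512391 was at 7.84 and 11.2 FPKM in shControl and at 2.13 and 0.0017 FPKM in shNeuroD1 (log2 fold change -2.55, limma adjusted p = 0.21). The other, at 111512385, was at 17.3 and 35.6 against 19.4 and 18.9 FPKM, and its replicates in shControl differed by more than the groups did. An exon of STARD4 from 111501086 to 111501116 on chromosome 5 was listed at 7.83 and 6.58 FPKM in shControl and not listed in either shNeuroD1 library, while a longer form from 111501002 to the same end was at 14.99 and 35.6 against 21.1 and 18.4 FPKM. It was the only one of 396 events other than starts of the set that reached 1 FPKM in both libraries of one group and was unlisted in the other, against 544 of 145649 events found only in shControl and 813 found only in shNeuroD1 over all genes.

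Other starts with much signal mostly, but not always, went the way of the counts. FASN was at 74.2 and 79.1 FPKM in shControl and at 102.5 and 100.8 FPKM in shNeuroD1 (log2 fold change 0.40, limma adjusted p = 0.17). IDI1 was at 27.5 and 27.8 against 17.4 and 17.7 FPKM. A start listed for FADS2, with the first exon ending at 61793028, was at 55.2 and 52.6 against 27.5 and 21.3 FPKM. As given above, that exon matches the bases shared with FEN1, so its FPKM cannot be read as FADS2 alone. The only start listed for HMGCS1 was at 17.6 and 23.9 FPKM in shControl and at 30.6 and 20.7 FPKM in shNeuroD1, groups that overlap and a log2 fold change of 0.28 against the direction of its counts. The MSMO1 start ending its first exon at 165327764 did not show the fall of its counts. It was at 10.85 and 13.81 against 15.37 and 9.66 FPKM (log2 fold change -0.004). Tested starts of LSS and ELOVL6 were at log2 fold changes of 0.03 and 0.78, where their counts fell. For SREBF1, starts with first exons ending at 17819538 and 17836727 went opposite ways, at -1.05 and 0.63. A downstream start of FDPS, with the first exon ending at 155319928, was at 0.168 and 0.188 FPKM in shControl and at 5.44 and 4.35 FPKM in shNeuroD1 (limma adjusted p = 0.079), while the counts of FDPS as a whole were lower.

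Other genes of the same pathways were taken from 7 lists by role, 86 genes of which 82 were tested. 30 fell (36.6%), 22 rose (26.8%) and 30 did not pass, with a median log2 fold change of -0.04 (0.08 under library size alone). Of 4 further genes of sterol synthesis, electron donors included, CYB5R3 fell by 0.25 (a call lost without either control or shNeuroD1 library 2, and under library size alone), and 2 rose, with FAXDC2 highest, up by 1.40 (1.42 and 2.46 CPM to 5.39 and 4.92 CPM). In 11 genes of the non-sterol branch, which prenylate proteins or build ubiquinone and dolichol, 5 fell and RABGGTA rose by 0.78, with PDSS1, which makes the side chain of ubiquinone, lowest at -0.46, a call lost without shControl library 2. The median of this list was -0.22, and that of the 4 sterol genes 0.41.

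The 9 genes of SREBP processing and turnover split into 3 lower, 3 higher and 3 not passed, with a median of 0.01. MBTPS2, the protease of the second cleavage of SREBP, was at 47.1 and 42.4 CPM in shControl and at 86.9 and 88.5 CPM in shNeuroD1 and rose by 0.97 (SE 0.062, edgeR adjusted p = 9.7e-15). PAQR3, a Golgi protein known to bind SCAP, was at 113 and 106 against 47.9 and 44.1 CPM and fell by 1.25 (SE 0.060, edgeR adjusted p = 6.1e-18). In cholesterol uptake and lysosomal export 3 of 9 fell and 3 rose, with a median of -0.06. VLDLR, a lipoprotein receptor, was at 51.4 and 51.5 against 28.4 and 29.55 CPM and fell by 0.83 (SE 0.073, edgeR adjusted p = 1.9e-11), and GRAMD1B, a sterol transporter of the endoplasmic reticulum, rose by 0.98.

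Of 11 genes of efflux, esterification and response to the sterol receptor LXR 9 were tested, and 3 fell and 3 rose, with a median of 0.26. ABCG1, a sterol exporter, was at 0.271 and 0.504 CPM in shControl and at 2.37 and 1.58 CPM in shNeuroD1 and rose by 2.31 (SE 0.46, edgeR adjusted p = 7.8e-05) on 4 to 36 counts per library. CYP46A1, which hydroxylates cholesterol in neurons, rose by 1.19 on 11 to 31 counts, a call that was lost without either control or without shNeuroD1 library 1. MYLIP, a ubiquitin ligase induced by LXR, was at 46.1 and 43.6 against 23.4 and 23.4 CPM and fell by 0.94 (SE 0.079, edgeR adjusted p = 7.1e-12).

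Of 25 other genes of fatty acid synthesis, elongation and activation 23 were tested, and 10 fell and 6 rose, with a median of -0.06. ACLY was at 715 and 762 CPM in shControl and at 458.5 and 452 CPM in shNeuroD1 and fell by 0.70 (SE 0.041, edgeR adjusted p = 1.1e-15). ACSL6, an acyl-CoA synthetase of neural tissue, was at 1.29 and 1.95 against 7.36 and 6.63 CPM and rose by 2.10 (SE 0.24, edgeR adjusted p = 4.4e-09). In fatty acid oxidation 5 of 17 fell and 4 rose (median -0.05), with CPT1A, the carnitine transferase at the mitochondrial entry, highest at 0.60 and ACADL, an acyl-CoA dehydrogenase, lowest at -0.54. The plot of fold changes by role shows that every list held genes in both directions.

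**Figure D5:**
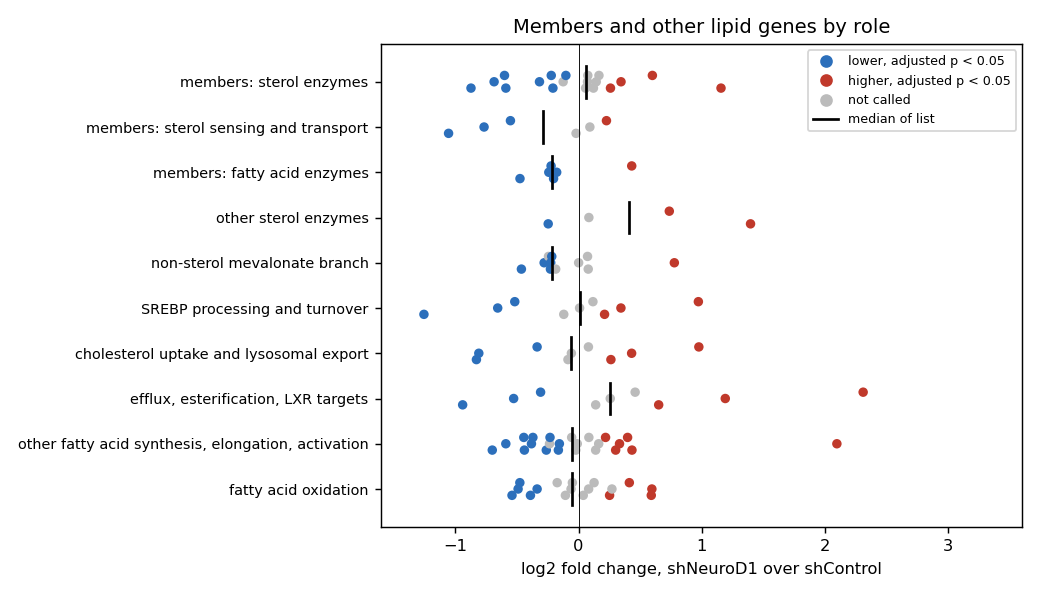
Log2 fold change, shNeuroD1 over shControl (x axis), of each tested gene in the 3 classes of the set and the 7 lists of other pathway genes (y axis), coloured by edgeR call, with a bar at the median of each list. All lists hold blue and red points, and the largest values, ABCG1 at 2.31 and ACSL6 at 2.10, lie outside the set.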

How the data were processed

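RNAseq counts of 4 libraries were analysed, grouped by the sample titles. The authors deposited raw counts for 60612 Ensembl genes, and per the submitters' processing notes cutadapt 1.9.1, HISAT2 2.0.1, HTSeq 0.6.1, DESeq2 and the build hg38 were used. The annotation release and the strand setting were not stated, and the labels name a poly(A) or an rRNA removal kit without saying which. The authors also deposited FPKM values of transcript starts, ends and splicing events per library, listed where above 0, by a tool not given in the sources used here. FPKM values carry no read depth. No sample column was left out, and 0% of counts lay in rows without a gene. The authors' tables of their own comparisons were not used.

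Counts were fitted in edgeR 4.0.16 (R 4.3.3) with filterByExpr (minimum count 10), TMM scaling and the two-sided quasi-likelihood F test, with Benjamini-Hochberg adjustment over 17537 genes. SEs were computed as the absolute log2 fold change over the root of the F statistic. Starts were tested in limma 3.58.1 (eBayes with trend) on log2(FPKM + 1) at a mean of at least 1 FPKM, and fold changes on that scale understate low values. Symbols were found for 60401 IDs, and coordinates, exon lengths and overlaps are those of GENCODE 29 (58394 IDs). RefSeq promoters matched 27 of 31 genes, and those of ACAT2, FASN, FDFT1 and SQLE were not used here. The fit was tested on simulated counts of 17106 genes with 200 changed, where 100% were called at log2 changes of 1 and 2, with 3.85% false calls.

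Named are all members, NEUROD1 and, from each other list, genes past both thresholds and the highest and lowest fold change. The members and lists were chosen with earlier results of these data known, and 5 genes of the other lists are not reported here. Replicates of a group differed by more than sampling noise (chi-square per degree of freedom 2.4 and 1.54). Alternatives were DESeq2 size factors, library size alone, no filter, a minimum mean of 1 CPM, the Wald test of DESeq2 1.42.0, a replicate block, limma on FPKM summed over starts (pseudocounts 1 and 0.1), a log2 fold change beyond 1, and leaving out each library, where the lone library left in a group is assumed to vary like the other group.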

Additional observations from a re-analysis of the deposited data

How the results depend on the processing

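Of the 31 genes, 16 were lower and 6 higher under DESeq2 size factors and with the replicate number as a block (replicate block), as in the reported fit. The numbers did not pair the libraries (correlation of deviations 0.01 over 13017 genes), and the block changed no call of a member. With no filter on low counts 16 members were lower and 4 higher, with MVK and CYP51A1 no longer called. A minimum mean of 1 CPM gave 15 lower and 7 higher, with HMGCS1 no longer called and SREBF2 called higher. Leaving out each library gave 13 to 15 members lower and 4 to 5 higher, 3528 to 4227 of all genes lower and 3151 to 3883 higher, and 20 to 25 genes of the other lists lower. The medians then ran from -0.149 to -0.0936 over the set, from 0.0408 to 0.0573 over the sterol enzymes, from -0.336 to -0.236 over sensing and transport and from -0.258 to -0.166 over the fatty acid enzymes, and INSIG2 ran from -0.0628 to 0.0170, with both signs. A log2 fold change beyond 1 left 1 member lower and 1 higher, 902 and 1541 of all genes, and 1 and 4 of the other lists, by construction. Library size alone gave 10 members lower and 12 higher and medians of -0.0123 over the set, 0.17, -0.17 and -0.10 over the 3 classes, with HMGCS1 at 0.0099 and INSIG2 at 0.0922, where the median of all genes was 0.12. DESeq2 called 3591 of all genes lower and 2767 higher, 14 members lower and 4 higher, with a median of -0.14. FPKM summed over starts with a pseudocount of 1 called 1 member lower (FADS2) and 0 higher of 28 (limma), 278 and 246 of all genes, and 1 and 0 of the other lists. With 0.1 the counts were 1 and 0, 257 and 206, and 1 and 0. Restricted to starts within the gene, chosen after seeing the data, they were 2 and 1, 293 and 251, and 1 and 0. The medians with pseudocount 1 were -0.0354 over the set and -0.0082, -0.112 and -0.114 over the 3 classes, the same within the gene, and with 0.1 they were -0.0325, 0.0002, -0.110 and -0.106. Reversed with pseudocount 1, within the gene or not, were HMGCS1 at 0.28, MVD at -0.36, NSDHL at 0.11, HSD17B7 at -0.17, INSIG2 at 0.0743 and ELOVL6 at 0.76, and with 0.1 they were at 0.29, -0.51, 0.14, -0.21, 0.0987 and 1.011, with LSS at 0.0002. The cause of these differences was not tested. No FPKM start of a member was called under either pseudocount or among the 75 starts listed in all 4 libraries. The 2 libraries per group limit ratios to a permutation p of 0.333, and the calls of HMGCS1, MVK, CYP51A1, ACACA, ELOVL6 and FADS2 were each lost without at least 1 library.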
